A study of Mus musculus with 6 samples.

Results

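The principal cell is the epithelial cell of the connecting tubule and collecting duct that sets how much water and sodium leave in the urine. Vasopressin binds the V2 receptor on its blood-facing side, raises cyclic AMP and moves aquaporin-2 water channels to the luminal membrane, and the water then leaves through aquaporin-3 and aquaporin-4. Aldosterone acts through the mineralocorticoid receptor and raises the entry of sodium through the epithelial sodium channel (ENaC), while an 11-beta-hydroxysteroid dehydrogenase keeps glucocorticoids from that receptor. The members described here were 10 genes chosen by symbol, Aqp2, Aqp3, Aqp4, Avpr2, Scnn1a, Scnn1b, Scnn1g, Fxyd4, Hsd11b2 and Nr3c2, and all 10 had a row among the 17684 genes of the table. Each of the 10 passed the filter of at least 10 counts in at least 3 libraries, as did 13679 genes in all.

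Whole kidney RNA came from db/db mice, which lack a working leptin receptor and become obese and diabetic, of a strain given as C57 BLKS/L in the labels and as C57BLKS/J in the study's methods, at an age of 50 weeks. The Db group (n = 3) received normal saline for 40 weeks and the Db + Ato10 group (n = 3) received atorvastatin, an inhibitor of HMG-CoA reductase, by gavage at 10 mg/kg per day of dosing for 40 weeks, though not on every day of the week. A treatment field of the sample records names atorvastatin for all 6 mice, so the groups follow the field that tells saline from drug. Mice without diabetes were not among these libraries. The depth in expected counts was 13134930, 11381678 and 12426051 for Db replicates 1, 2 and 3 and 14578023, 14667909 and 13133241 for the treated replicates 1, 2 and 3. Levels are given as CPM (counts scaled to a common library size with TMM factors) for comparisons between libraries and as TPM, which also divides by transcript length, for comparisons between genes.

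Several libraries stood apart. Db replicate 1 had 2 counts over 4 Y-linked genes and the other libraries had 1419 to 2116. According to the study's methods only males were enrolled. On the first principal component of log2 CPM, Db + Ato10 replicates 1 and 2 lay on the positive side, at 107 and 45.9, and Db + Ato10 replicate 3 lay at -19.0, on the side of the Db libraries at -55.3, -26.6 and -51.8. Results on the members are therefore also given without Db replicate 1 and without each Db + Ato10 library.

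All 10 members had lower fitted levels in the Db + Ato10 kidneys than in the Db kidneys, and none met the criteria for a differentially expressed gene (DEG, a fold change over 1.5 and an adjusted p under 0.05) with edgeR. Their log2 fold changes ran from -1.14 for Nr3c2 to -0.35 for Aqp2, with a median of -0.73 beside -0.0063 over all tested genes, of which 50.6% lay below 0. At an unadjusted p under 0.05, 6 of the 10 were lower and 0 higher, beside 5.71% lower and 11.2% higher of all tested genes. With edgeR 0.0% of all genes were DEGs. DESeq2 called 3 of the 10, Scnn1g, Hsd11b2 and Nr3c2, all lower, and it called 1.29% of all genes lower and 5.17% higher. In 7 of the 10 every Db + Ato10 library lay below every Db library, which held for 11.3% of all genes, and in 0 of the 10 above, which held for 12.0% of all genes. In bulk tissue, fewer principal cells and less RNA per cell cannot be told apart.

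The members kept their direction when the libraries that stood apart were left out. Without Db replicate 1 the 10 log2 fold changes ran from -1.17 to -0.36, 3 members were lower at an unadjusted p under 0.05 beside 2.52% of all genes, edgeR called 0, and DESeq2 called Hsd11b2 among 195 DEGs, 35 of them lower. Without Db + Ato10 replicate 1 they ran from -0.98 to -0.40, 6 members were lower at that p beside 4.71% of all genes, edgeR called 0, and DESeq2 called Scnn1g and Hsd11b2 among 313 DEGs, 119 of them lower. Without Db + Ato10 replicate 2 they ran from -1.13 to -0.046, 3 members were lower at that p beside 3.03% of all genes, edgeR called 0 among 0 DEGs, and DESeq2 called 0 among 372 DEGs, 74 of them lower. Without Db + Ato10 replicate 3, the library nearest to the Db group, they ran from -1.50 to -0.37, and 5 members were lower at that p beside 13.1% of all genes, the largest such share of these fits. There edgeR called Scnn1g and Nr3c2 among 1106 DEGs, 301 of them lower, and DESeq2 called 5 members, adding Aqp3, Avpr2 and Hsd11b2, among 2614 DEGs, 1014 of them lower.

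Aqp2 (NCBI Gene 11827) encodes the vasopressin-regulated water channel of the luminal membrane. It had 339.6, 214 and 501 CPM in Db replicates 1 to 3 and 341, 156 and 333 CPM in Db + Ato10 replicates 1 to 3. Replicate 2 was the lowest library of both groups, Db + Ato10 replicate 1 equalled Db replicate 1 closely, and the groups overlapped. The log2 fold change was -0.35 ± 0.41 (SE) with an edgeR adjusted p of 0.656, and it was near 0 when Db replicate 3 (-0.0020) or Db + Ato10 replicate 2 was left out (-0.046) and -0.60 when Db replicate 2 was, so the difference depended on single libraries. Aqp3 (NCBI Gene 11828), a water and glycerol channel of the basolateral membrane, had 122, 98.1 and 167 CPM in the Db and 66.1, 46.5 and 96.1 CPM in the Db + Ato10 libraries. Every Db + Ato10 library was below every Db library, by a small margin between Db replicate 2 and Db + Ato10 replicate 3. The log2 fold change of Aqp3 was -0.89 ± 0.32 (SE), with an edgeR adjusted p of 0.254.

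Aqp4 (NCBI Gene 11829), the other basolateral water channel, had 91.7, 27.1 and 125 CPM in the Db and 54.1, 26.1 and 56.2 CPM in the Db + Ato10 libraries. Db replicate 2 was as low as the lowest treated library and the other Db libraries were the highest of all 6, so the groups overlapped. The Db libraries spanned a 4.60-fold range, the widest within-group range of the 10 genes, and the log2 fold change of -0.84 ± 0.56 (SE) had an edgeR adjusted p of 0.449. It was -0.39 with Db replicate 3 left out and -0.54 with Db + Ato10 replicate 2 left out, so its size depended on single libraries. Avpr2 (NCBI Gene 12000) encodes the V2 vasopressin receptor. Its levels were 36.6, 29.7 and 55.4 CPM in Db replicates 1 to 3 and 21.6, 16.7 and 29.1 CPM in Db + Ato10 replicates 1 to 3. The groups did not overlap, although Db replicate 2 and Db + Ato10 replicate 3 nearly met. The log2 fold change of Avpr2 was -0.85 ± 0.30 (SE), with an edgeR adjusted p of 0.252, and -0.56 with Db replicate 3 left out.

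ENaC is built from an alpha, a beta and a gamma subunit. Scnn1a (NCBI Gene 20276), the alpha subunit, had 365, 432 and 286 CPM in Db replicates 1 to 3 and 357, 198 and 268 CPM in Db + Ato10 replicates 1 to 3. Db + Ato10 replicate 1 lay among the Db libraries and the groups overlapped. Its log2 fold change was -0.39 ± 0.27 (SE), with an edgeR adjusted p of 0.459. Its size depended on single libraries, with -0.24 when Db replicate 2 was left out, and -0.62 and -0.19 when Db + Ato10 replicate 1 or 2 was. Scnn1b (NCBI Gene 20277), the beta subunit, had 83.9, 106 and 74.0 CPM in the Db and 72.3, 61.7 and 65.0 CPM in the Db + Ato10 libraries. The groups did not overlap in CPM, with Db replicate 3 just above Db + Ato10 replicate 1, and they overlapped in FPKM. The log2 fold change of Scnn1b was -0.41 ± 0.17 (SE), with an edgeR adjusted p of 0.295, and -0.25 with Db replicate 2 left out. Scnn1g (NCBI Gene 20278), the gamma subunit, had 89.4, 76.3 and 79.5 CPM in the Db and 42.8, 43.8 and 56.3 CPM in the Db + Ato10 libraries. The Db libraries lay close together, and all treated libraries were below them with a clear gap. The means were 81.7 ± 6.84 CPM (SD, n = 3) and 47.7 ± 7.52 CPM (SD, n = 3), and the log2 fold change of -0.78 ± 0.16 (SE) had an adjusted p of 0.239 with edgeR and of 0.00410 with DESeq2. With 1 library left out, DESeq2 called Scnn1g only without Db replicate 2 or Db + Ato10 replicate 1 or 3.

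Hsd11b2 (NCBI Gene 15484) encodes the enzyme that inactivates glucocorticoids beside the mineralocorticoid receptor. It had 170.5, 197 and 195 CPM in Db replicates 1 to 3 and 133, 104 and 115 CPM in Db + Ato10 replicates 1 to 3. Both groups were tight and did not overlap. The means were 187 ± 14.8 CPM (SD, n = 3) and 117 ± 14.6 CPM (SD, n = 3), with a log2 fold change of -0.68 ± 0.15 (SE) and an adjusted p of 0.239 with edgeR and 0.00555 with DESeq2. With 1 library left out, DESeq2 called Hsd11b2 only without Db replicate 1 or Db + Ato10 replicate 1 or 3. Nr3c2 (NCBI Gene 110784) encodes the mineralocorticoid receptor itself and was the least abundant member. Its levels were 13.7, 16.0 and 14.0 CPM in the Db and 3.69, 6.62 and 9.53 CPM in the Db + Ato10 libraries. The Db libraries were alike, the treated libraries spread widely below them, and Db + Ato10 replicate 1 was the lowest. Its counts were 173, 185 and 173 in the Db and 56, 98 and 121 in the Db + Ato10 libraries. The log2 fold change of Nr3c2 was -1.14 ± 0.35 (SE), with an adjusted p of 0.239 with edgeR and 0.0490 with DESeq2. With 1 library left out, DESeq2 called Nr3c2 without Db + Ato10 replicate 3 only. Fxyd4 (NCBI Gene 108017) encodes a small regulator of the sodium pump, also called CHIF. It had 26.9, 26.8 and 41.4 CPM in the Db and 23.0, 24.5 and 23.3 CPM in the Db + Ato10 libraries. The treated libraries were nearly equal, and Db replicate 3 alone stood well above them. The log2 fold change of Fxyd4 was -0.43 ± 0.20 (SE), with an edgeR adjusted p of 0.335, and it was -0.18 with that library left out.

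The smallest edgeR adjusted p over all tested genes was 0.239, which 1222 genes shared, among them Scnn1g, Hsd11b2 and Nr3c2.

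**Figure D1:**
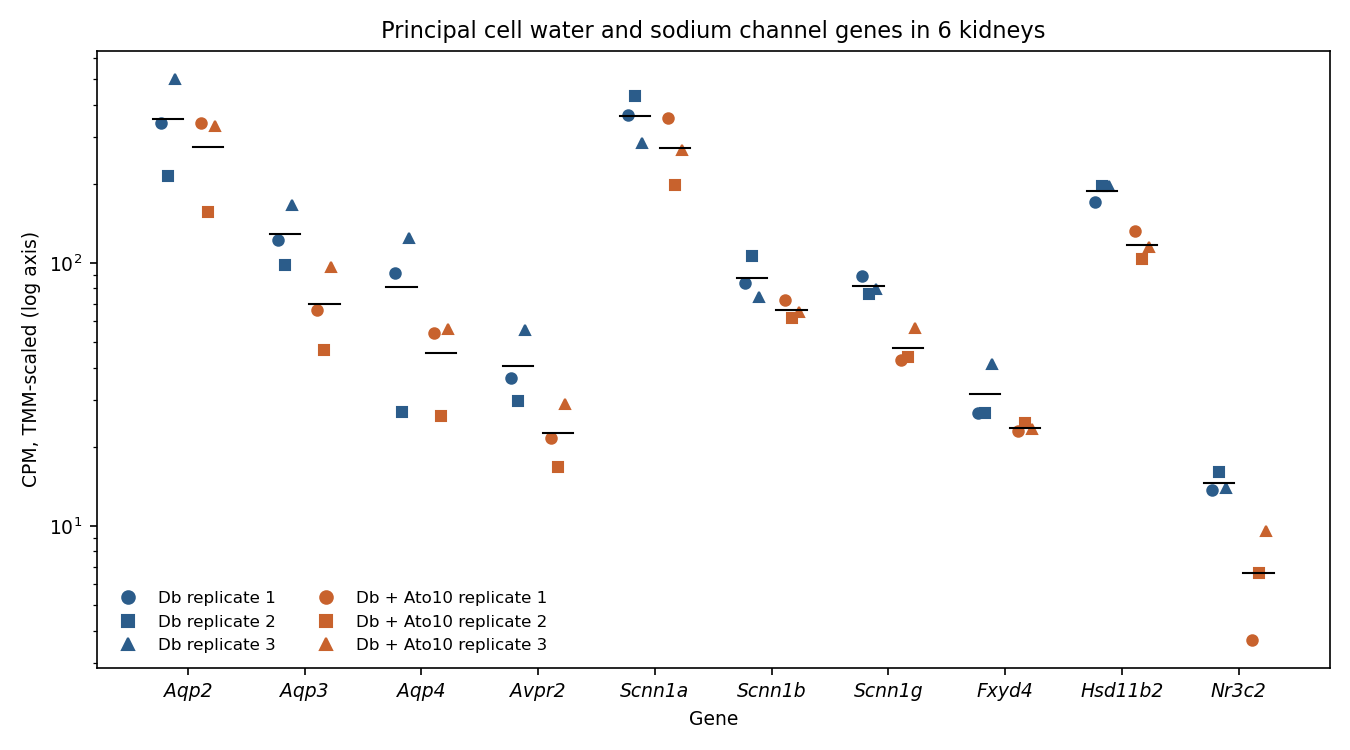
Level of each member in CPM on a log axis in the 3 Db (blue) and 3 Db + Ato10 (orange) libraries, with symbols for replicates 1 to 3 and a line at each group's mean. In 7 of the 10 genes all orange symbols lie below all blue ones, and in Aqp2, Aqp4 and Scnn1a the groups overlap.

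The libraries of the Db group did not rank alike for all members. Aqp2, Aqp3, Aqp4, Avpr2 and Fxyd4 were highest in Db replicate 3, and the lowest Db library for each of these was replicate 2. Scnn1a and Scnn1b had the opposite order, with the highest level in Db replicate 2 and the lowest in Db replicate 3. These orders were noticed after the values were seen and were not tested.

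On the per-length TPM scale the members differed widely in level. In the Db group Aqp2 led with 467 ± 191 TPM (SD, n = 3), followed by Scnn1a with 195 ± 41.2, Hsd11b2 with 185 ± 14.6, Aqp3 with 134 ± 36.1 and Fxyd4 with 115 ± 31.3 TPM. Scnn1b had 57.9 ± 10.8, Scnn1g 48.4 ± 4.01, Avpr2 42.4 ± 13.6, Aqp4 27.2 ± 16.6 and Nr3c2 5.54 ± 0.527 TPM. Scnn1a and Hsd11b2, Aqp3 and Fxyd4, Scnn1b and Scnn1g, Scnn1g and Avpr2, and Avpr2 and Aqp4 were neighbours that differed by less than the larger SD of the pair. In the Db + Ato10 group the order was the same except that Fxyd4, with 76.7 ± 5.83 TPM, stood above Aqp3, with 67.9 ± 23.7 TPM, a difference smaller than the larger SD of the pair, as in the Db group. Aqp2 had 342 ± 118, Scnn1a 147 ± 37.0, Hsd11b2 109 ± 7.72 and Scnn1b 41.1 ± 1.31 TPM there. Scnn1g had 26.9 ± 4.31, Avpr2 22.0 ± 4.51, Aqp4 14.3 ± 4.80 and Nr3c2 2.41 ± 1.08 TPM.

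Ratios of TPM within a library asked whether members differed to unequal extents. The ratio of Aqp3 to Aqp2 was 0.281, 0.359 and 0.261 in Db replicates 1 to 3 and 0.152, 0.234 and 0.227 in Db + Ato10 replicates 1 to 3, lower in all treated libraries. The exact two-sided permutation p was 0.1, the smallest that 3 against 3 libraries allow, and 0.5 after adjustment over the 5 ratios. Scnn1g to Scnn1b was 0.957, 0.646 and 0.969 in the Db and 0.540, 0.645 and 0.783 in the Db + Ato10 libraries, where Db replicate 2 lay among the treated values (exact permutation p = 0.2). Scnn1g to Scnn1a, Aqp4 to Aqp2 and Scnn1b to Scnn1a overlapped between the groups, with exact permutation p-values of 0.3, 0.4 and 0.8 and log2 differences of -0.45, -0.30 and -0.069. With 1 library left out these differences ranged over -0.65 to -0.15, -0.64 to -0.098 and -0.23 to 0.093, and that of Aqp3 to Aqp2 from -0.68 to -0.37.

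Estimated values per RefSeq transcript were given for 29 transcripts of the members, of which 24 passed the filter. Aqp2, Aqp3 and Hsd11b2 had a single transcript each. With edgeR 0 of the 24 were DEGs, as were 0.0% of all tested transcripts, and 6 were lower at an unadjusted p under 0.05, beside 2.81% of all. These 6 include 2 transcripts of Aqp4 with identical counts and so stand for 5 distinct results. DESeq2 called 2 of the 24 lower, NM_011326.3 of Scnn1g (adjusted p = 0.00124) and NM_008289.2 of Hsd11b2 (adjusted p = 0.0129), beside 1.05% of all. In 6 of the 24 every Db + Ato10 library lay below every Db library, beside 8.73% of all.

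Scnn1a had 2 listed transcripts, and neither was called with either tool. NM_011324.2 had 145, 153 and 107 TPM in Db replicates 1 to 3 and 71.8, 47.1 and 81.4 TPM in Db + Ato10 replicates 1 to 3. All treated libraries lay below all Db libraries for this transcript, with a log2 fold change of -0.89 ± 0.28 (SE) and an edgeR adjusted p of 0.523. The predicted transcript XM_017321471.1 had 49.1, 83.0 and 46.5 TPM in the Db and 115, 67.1 and 58.9 TPM in the Db + Ato10 libraries. Its groups overlapped, with the highest value in Db + Ato10 replicate 1, and the log2 fold change was 0.58 ± 0.39 (SE) with an edgeR adjusted p of 0.751. XM_017321471.1 took 20.5, 29.3 and 24.8% of the counts of Scnn1a in the Db and 55.1, 52.0 and 35.5% in the Db + Ato10 libraries. These shares did not overlap between the groups. They were compared after the values had been seen and were not tested.

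Scnn1g was carried mostly by NM_011326.3, which had 50.0, 43.9 and 42.5 TPM in the Db and 18.3, 22.1 and 28.0 TPM in the Db + Ato10 libraries, with no overlap. The share of the predicted transcript XM_006507477.3 in the counts of Scnn1g was 4.89, 2.30 and 9.01% in the Db and 18.8, 13.9 and 10.2% in the Db + Ato10 libraries. All treated libraries were above all Db libraries in this share, by a small margin between Db replicate 3 and Db + Ato10 replicate 3. The level of XM_006507477.3 itself overlapped between the groups, with a log2 fold change of 0.61 ± 0.58 (SE). Its share too was compared after the values had been seen and was not tested. For Aqp4, NM_001308641.1 had 7.76, 5.84 and 15.3 TPM in the Db and 10.9, 7.14 and 12.9 TPM in the Db + Ato10 libraries, with broad overlap. NM_009700.3 and NM_001317729.1 held identical values, 10.6, 1.07 and 10.7 TPM in the Db and 1.92, 0.82 and 0.91 TPM in the Db + Ato10 libraries, so reads were split evenly between them and neither can be read on its own. Db replicates 1 and 3 were high for these transcripts, and Db replicate 2 was as low as the treated libraries. The counts of Nr3c2 were divided among 4 transcripts in a way that differed even between Db libraries, and its transcripts are not interpreted singly. Avpr2, Scnn1b and Fxyd4 had 4, 2 and 8 transcripts, and none of these was called with either tool.

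**Figure D2:**
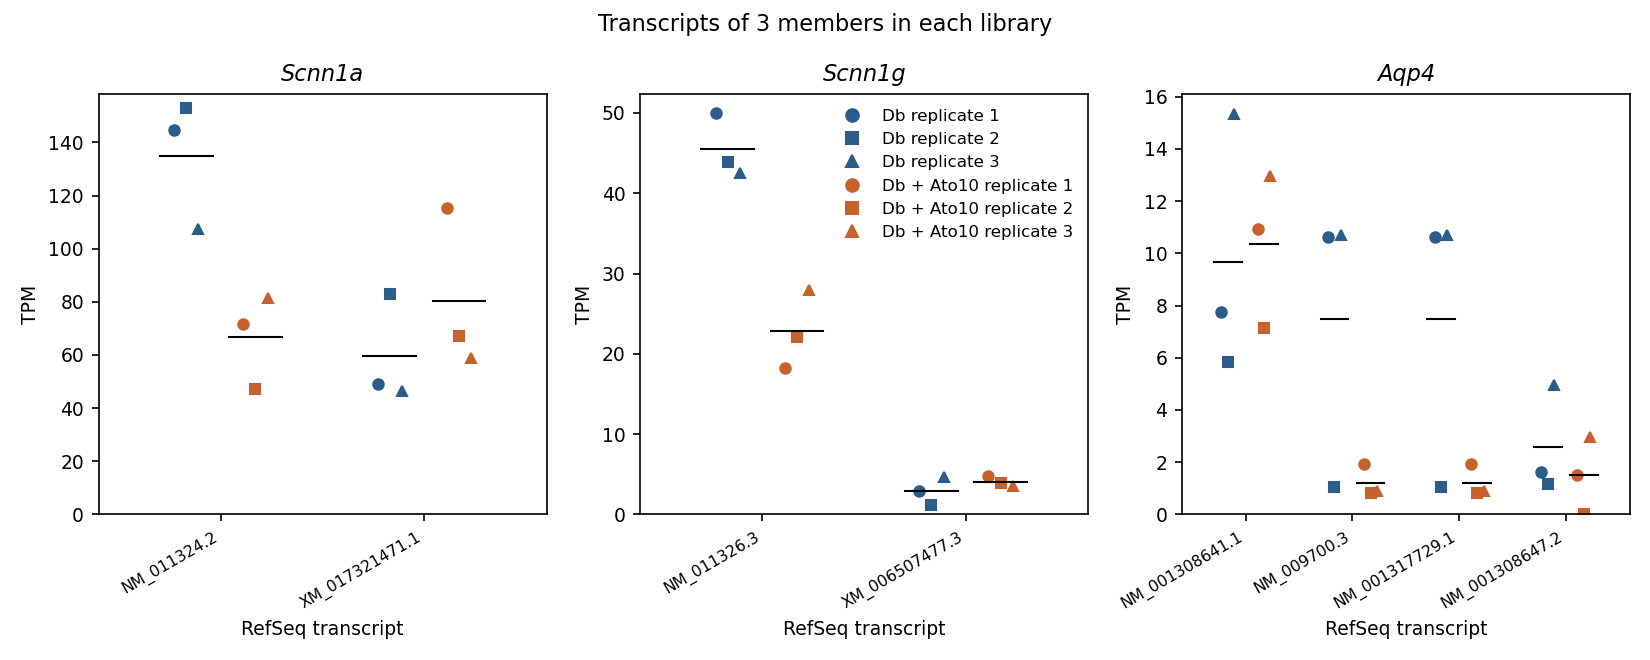
TPM of each listed transcript of Scnn1a, Scnn1g and Aqp4 in the 3 Db (blue) and 3 Db + Ato10 (orange) libraries, with symbols for replicates 1 to 3 and a line at each group's mean. NM_011324.2 of Scnn1a and NM_011326.3 of Scnn1g are lower in all orange libraries, and the values of NM_009700.3 and NM_001317729.1 are the same.

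Some reads of the members could come from other genes, since counting by strand is not stated in the sources used here. By RefSeq gene names (GRCm38.p6), Avpr2 overlapped Arhgap4, a protein-coding gene with 3.73, 4.94 and 4.93 CPM in the Db and 26.5, 7.23 and 4.65 CPM in the Db + Ato10 libraries. Arhgap4 was highest in Db + Ato10 replicate 1, where Avpr2 was below every Db library. Aqp4 overlapped the lncRNA A830021F12Rik, which had at most 0.0675 CPM in any library. Aqp2, Scnn1g and Nr3c2 overlapped noncoding genes that had no row in the table, and reads of these cannot be told apart from those of the members.

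Genes that act with the members were read as lists, and 2 of the 22 vasopressin genes, 3 of the 21 aldosterone genes, 3 of the 20 paralogs, 4 of the 14 transcription factors and 2 of the 8 osmotic genes are held by another list too. Of 22 genes of vasopressin signalling and aquaporin-2 traffic, 10 had lower and 12 had higher fitted levels, with a median log2 fold change of 0.10, and 3 were lower and 1 higher at an unadjusted p under 0.05, beside 5.71% lower and 11.2% higher of all tested genes. Adcy6, an adenylyl cyclase that acts below the V2 receptor, had 196, 158 and 162 CPM in the Db and 86.8, 123 and 128 CPM in the Db + Ato10 libraries. Ptger3, a prostaglandin E2 receptor that lowers cyclic AMP, had 93.1, 80.4 and 146 CPM in the Db and 58.0, 42.8 and 55.4 CPM in the Db + Ato10 libraries. The groups did not overlap for either gene, with log2 fold changes of -0.61 ± 0.20 and -1.03 ± 0.26 (SE), and DESeq2 called Ptger3 (adjusted p = 0.0191), which is also on the thick ascending limb list. Ptger1, another prostaglandin E2 receptor, had 12.5, 18.4 and 27.6 CPM in the Db and 11.1, 9.52 and 11.6 CPM in the Db + Ato10 libraries, and Ptger4, a receptor that raises cyclic AMP, had 3.26, 4.42 and 2.91 and 8.89, 7.77 and 5.28 CPM. Ptger1 was lower and Ptger4 higher in all treated libraries, and DESeq2 called Ptger4 (adjusted p = 0.0427).

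Of 21 genes of the aldosterone response and ENaC regulation, 11 had lower and 10 had higher fitted levels (median log2 fold change -0.017), and 2 were lower and 2 higher at an unadjusted p under 0.05, near the 5.71% and 11.2% of all tested genes. Kcnj1, the ROMK potassium channel of the thick ascending limb and the principal cell, had 559, 505 and 515 CPM in the Db and 230.4, 172 and 277 CPM in the Db + Ato10 libraries. Wnk1, a kinase that regulates sodium chloride transport, had 765, 836 and 589 CPM in the Db and 399, 282 and 376 CPM in the Db + Ato10 libraries. Both were well apart between the groups, with log2 fold changes of -1.22 ± 0.22 and -1.05 ± 0.23 (SE), and DESeq2 called both (adjusted p = 7.77e-05 and 0.00158). Kcnj1 is also on the thick ascending limb list and Wnk1 on the distal convoluted tubule list, in which every tested gene was lower. Tmprss4, a membrane serine protease, had 0.477, 0.607 and 0.404 CPM in the Db and 5.40, 3.92 and 1.10 CPM in the Db + Ato10 libraries, and Kcnma1, the BK potassium channel, had 1.51, 2.17 and 1.78 and 2.90, 3.85 and 2.52 CPM. Both were scarce and higher in all treated libraries, and DESeq2 called Tmprss4 (adjusted p = 0.00555). The aldosterone-induced kinase gene Sgk1 had 788, 375 and 205 CPM in the Db and 215, 359.8 and 329.8 CPM in the Db + Ato10 libraries, a log2 fold change of -0.60 with an edgeR adjusted p of 0.524.

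Paralogs of the members numbered 16 tested of 19 in the table, with 10 lower and 6 higher fitted levels and a median log2 fold change of -0.063. At an unadjusted p under 0.05, 1 paralog was lower and 2 were higher, near the 5.71% and 11.2% of all tested genes. Aqp8 was the lower one, with 2.07, 2.60 and 3.80 CPM in the Db and 0.988, 1.69 and 0.945 CPM in the Db + Ato10 libraries. Fxyd5, a regulator of the sodium pump, was higher, with 12.2, 15.4 and 13.4 and 241, 41.5 and 19.8 CPM, and Fxyd3 had 0.159, 0.0867 and 0 and 10.9, 4.25 and 1.26 CPM, so that they differed from Fxyd4 in direction. Fxyd2, the most abundant paralog, had the direction of Fxyd4, and Fxyd1 and Fxyd6 did not. Their log2 fold changes were -0.32, 0.63 and 0.73, and their groups overlapped. DESeq2 called Fxyd3 and Fxyd5 (adjusted p = 1.33e-04 and 0.0106), and both were highest in Db + Ato10 replicate 1. Among 14 transcription factors of the collecting duct, 11 were lower and 3 higher (median -0.30). Gata2, Tfap2b and Lhx1 were lower at an unadjusted p under 0.05 (beside the same 5.71% of all genes), with log2 fold changes of -0.48, -0.71 and -1.30, and Elf3, an epithelial ETS factor, was higher with 1.44 (beside 11.2%). Of the 14 factors, these 3 lay below and Elf3 above every Db library in all treated libraries, beside 11.3% and 12.0% of all genes. DESeq2 called Tfap2b lower and Elf3 higher (adjusted p = 0.0466 and 0.00456), beside 1.29% lower and 5.17% higher of all genes. Of 8 genes of the osmotic response, 6 were lower and 2 higher (median -0.27), and 0 had an unadjusted p under 0.05.

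By the correlation of log2 CPM over the 6 libraries with the mean standardised profile of the members, the genes most like them were Lnx1, Akr1b10, Slc25a35, Magix, Tmtc1 and Fras1. Pearson's r was between 0.990 and 0.994 for these 6, among 11369 genes with a mean of at least 5 CPM, of which 2.58% had an r over 0.9. The correlation describes these libraries and includes the difference between the groups. Lnx1 had 15.9, 14.0 and 17.8 CPM in the Db and 8.04, 4.93 and 8.35 CPM in the Db + Ato10 libraries, and like the members' profile it was lowest in Db + Ato10 replicate 2.

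Markers of the cell types in the kidney were read in the same libraries, and none of the listed markers was at 0 in all 6. Counts of lower or higher markers refer to fitted levels, whether or not a gene passed a threshold. Another list also holds 4 of the other principal cell markers, 2 each of the thick ascending limb and distal convoluted tubule markers and 1 each of the connecting tubule, intercalated cell, proximal tubule, urothelial and injury markers. Other principal cell markers were lower in 8 of 10 (median -0.35), with Kcnj1 the most abundant and Krt18 the largest exception (1.36). They summed to 1103, 938 and 957 CPM in the Db and 858, 527 and 659 CPM in the Db + Ato10 libraries. Kcnj1, which the thick ascending limb list also holds, made up most of that difference, and the other 9 markers summed to 545, 433 and 442 CPM in the Db and 628, 355 and 382 CPM in the Db + Ato10 libraries, where the groups overlapped and Db + Ato10 replicate 1 was the highest. Connecting tubule markers summed to 5420.1, 5736 and 4277 CPM in the Db and 3416, 1776 and 3214 CPM in the Db + Ato10 libraries (4 of 7 lower, median -0.63), with Klk1 the most abundant and Trpv6, which was higher, the most different (2.29). Intercalated cell markers summed to 1294, 1123 and 1070.3 CPM in the Db and 633, 626 and 923 CPM in the Db + Ato10 libraries (11 of 11 lower, median -0.72), with Atp6v0a4 the most abundant and Slc4a1 the most different (-1.41). Thick ascending limb markers summed to 9249, 10078 and 9407 CPM in the Db and 5201, 2664 and 6600.5 CPM in the Db + Ato10 libraries (10 of 10 lower, median -0.97), with Umod the most abundant and Egf the most different (-2.06). Distal convoluted tubule markers summed to 4159, 4404 and 3199 CPM in the Db and 1781, 1171 and 2153 CPM in the Db + Ato10 libraries (7 of 7 lower, median -1.20), with Slc12a3 the most abundant and Kl the most different (-1.53). The median of the members (-0.73) lay within the span of these 5 lists, -1.20 to -0.35, and differences between lists were not tested.

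Outside the distal nephron the libraries varied more within the treated group. Proximal tubule markers summed to 15998, 11068 and 14758 CPM in the Db and 2914, 8343 and 14509.6 CPM in the Db + Ato10 libraries. Db + Ato10 replicate 1 lay far below the rest. Fitted levels were lower in 10 of 10 (median -0.73, as for the members), with Slc34a1 the most abundant and Slc5a2 the most different (-1.55). At an unadjusted p under 0.05, 0 of these 10 were lower, beside 6 of the 10 members and 5.71% of all tested genes. In 1 of these 10 every Db + Ato10 library lay below every Db library, beside 7 of the 10 members and 11.3% of all genes. These 2 counts were 7 and 7 of 10 for the thick ascending limb and 6 and 7 of 7 for the distal convoluted tubule. They were 7 and 7 of 11 for the intercalated cell, 3 and 4 of 10 for the other principal cell markers and 2 and 3 of 7 for the connecting tubule. Podocyte markers summed to 637, 446 and 449 CPM in the Db and 753, 267 and 443 CPM in the Db + Ato10 libraries (3 of 8 lower, median 0.078; Podxl the most abundant), and endothelial markers summed to 412, 327 and 373 CPM in the Db and 411, 161 and 339 CPM in the Db + Ato10 libraries (5 of 7 lower, median -0.37; Pecam1 and Kdr, the latter with -1.05). Leukocyte markers summed to 349.7, 517 and 395 CPM in the Db and 4972, 3982 and 490.5 CPM in the Db + Ato10 libraries (8 of 8 tested higher, median 3.13), with Cd74 the most abundant and Lyz2 the most different (4.76). Fibroblast and myofibroblast markers summed to 146, 199 and 139 CPM in the Db and 2037, 809 and 269 CPM in the Db + Ato10 libraries (8 of 8 higher, median 2.73), led by Fn1 in level and Col1a1 in difference (4.63). Tubular injury markers summed to 2922, 3464 and 1859 CPM in the Db and 14404, 30289 and 9560.2 CPM in the Db + Ato10 libraries (6 of 6 higher, median 4.00), led by Spp1 in level and Lcn2 in difference (6.89). Urothelial and squamous markers summed to 7.87, 8.76 and 6.06 CPM in the Db and 209, 153 and 52.0 CPM in the Db + Ato10 libraries (5 of 6 tested higher, median 4.24), with Krt20 the most abundant and Krt14 at 31.2, 13.6 and 5.59 CPM in the Db + Ato10 libraries beside 0.0795 CPM or less in the Db libraries. Erythroid genes summed to 929, 829 and 3431 CPM in the Db and 1205, 226 and 532 CPM in the Db + Ato10 libraries. Db replicate 3 was the highest library. Fitted levels were lower in 5 of 5 (median -1.38), with Hba-a1 the most abundant and Hba-a2 the most different (-1.47). At an unadjusted p under 0.05, 0 of the 5 were lower, and the groups overlapped in all 5. The urothelial median lies between the values of Krt20 (5.25) and Sprr1a (3.23). The part of these other cell types in the members' lower levels was not tested.

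**Figure D3:**
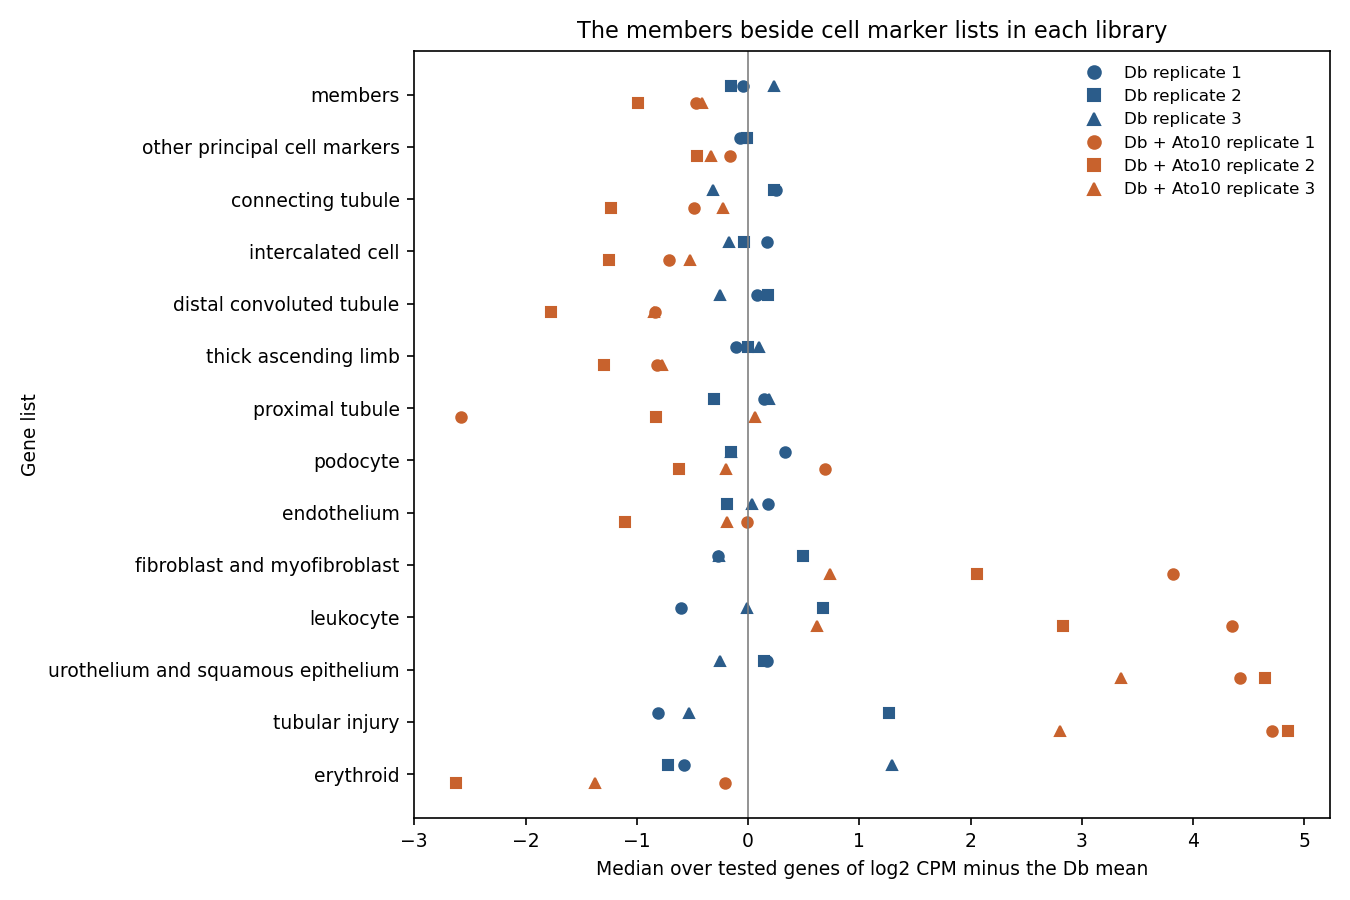
Median over the tested genes of each list of log2 CPM minus the Db mean, in the 3 Db (blue) and 3 Db + Ato10 (orange) libraries, with symbols for replicates 1 to 3. The members lie below every Db library in all 3 orange libraries, as do the other principal cell, intercalated cell, distal convoluted tubule and thick ascending limb lists, while the injury and urothelial lists lie to the right in all 3 and the leukocyte and fibroblast lists most in replicates 1 and 2.

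The 250 bases before the RefSeq start of each member (GRCm38.p6) were searched for short motifs on both strands, and 7 of the 10 matched a promoter entry, Aqp2, Aqp3, Avpr2, Scnn1b, Scnn1g, Fxyd4 and Nr3c2. The cyclic AMP response element TGACGTCA was found in 0 of the 7, beside 1.55% of all 32851 promoters, and its half-site TGACG in 1, Aqp2, beside 17.8%. The steroid receptor half-site AGAACA was found in Aqp2 and Avpr2 (16.1% of all), the GATA motif AGATAA in Aqp2 (9.99%) and the ETS motif AGGAAG in Aqp2 and Scnn1b (29.5%). The NFAT core TGGAAA was found in Nr3c2 (18.6%), TATAAA in Aqp3 and Avpr2 (12.4%) and the AP-1 motif TGANTCA in 0 of the 7 (6.75%). The promoters of Aqp2 and Avpr2 are shown since they held the most matches, with matched bases in capitals as read on the plus strand. In Avpr2 all 3 matches lie on the minus strand, as TGTTCT and TTTATA, and the half-site nearest the start shares its last base with TTTATA. A match is a run of letters and not a site of binding. The bases of Aqp2 lie at chr15:99578806-99579055 (+ strand) and those of Avpr2 at chrX:73891852-73892101 (+ strand).
Aqp2: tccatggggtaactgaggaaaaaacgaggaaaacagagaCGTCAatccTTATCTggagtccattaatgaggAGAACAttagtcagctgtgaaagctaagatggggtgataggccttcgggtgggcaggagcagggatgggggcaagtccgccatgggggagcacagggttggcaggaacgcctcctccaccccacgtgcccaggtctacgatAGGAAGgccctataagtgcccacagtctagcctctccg
Avpr2: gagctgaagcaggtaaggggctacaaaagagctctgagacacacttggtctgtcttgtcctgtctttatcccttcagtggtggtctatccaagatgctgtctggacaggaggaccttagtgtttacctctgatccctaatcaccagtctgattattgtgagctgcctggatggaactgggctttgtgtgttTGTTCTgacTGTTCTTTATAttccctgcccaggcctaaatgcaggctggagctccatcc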

How the data were processed

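RNA of 6 kidneys, 1 library per mouse, was compared between 3 Db and 3 Db + Ato10 mice, grouped by the sample labels. The authors deposited expected counts (estimated reads, not normalized), FPKM and TPM per gene and per transcript; the submitters' processing notes name HISAT, Bowtie2 2.2.5 and build mm9 without roles, and the counter is not given in the sources used here. The authors' group means were not used. Library totals ran from 11381678 to 14667909 counts, and 0 pairs of libraries were identical.

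Expected counts were rounded and tested with edgeR 4.0.16 in R 4.3.3 (TMM, quasi-likelihood F test, Benjamini-Hochberg adjustment over all genes or all transcripts) after a filter of at least 10 counts in at least 3 libraries. SE is the size of the log2 fold change over the square root of F. Log2 CPM used a prior count of 2. Exact permutation tests used scipy 1.17.1. Alternatives were DESeq2 1.42.0, limma 3.58.1 (voom, or log2(TPM + 1) and log2(FPKM + 1)), upper-quartile normalization, other filters, a replicate block and leaving out each library; DESeq2 with a library left out and other scales for overlap were added after the data were seen.

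The members and lists were chosen with earlier results of these data known. Named genes were all members, pathway-list genes at an unadjusted p under 0.05 or called by DESeq2, the most abundant gene of each marker list and the most different gene of most, and the 6 genes most like the members. Sgk1, Sprr1a, Fxyd1, Fxyd2 and Fxyd6 were named besides, after their values were seen, and Arhgap4 and A830021F12Rik as genes that overlap members. Figures used matplotlib 3.10.9.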

Additional observations from a re-analysis of the deposited data

How the results depend on the processing

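DEGs among all genes numbered 0 with edgeR (2314 at an unadjusted p under 0.05) and 884 with DESeq2. With a library left out they ranged from 0 to 1106 with edgeR, above 0 without Db + Ato10 replicate 3 only. With DESeq2 they were 195, 623 and 223 when Db replicate 1, 2 or 3 was dropped, and 313, 372 and 2614 when Db + Ato10 replicate 1, 2 or 3 was. DEGs among the members were 0 with edgeR, from 0 to 2 with a library left out, and 3 with DESeq2, which called 1, 1 and 0 in the same order of dropped Db libraries and 2, 0 and 5 for the treated ones. Members at an unadjusted p under 0.05 with edgeR were 6, and from 3 to 6 with a library left out. DEGs among the transcripts of the members were 0 with edgeR and 2 with DESeq2. The cause of these differences was not tested. Of 200 log2 fold changes of members under the alternatives, 199 stayed below 0. The exception was Aqp2 with DESeq2 and without Db replicate 3 (0.0089). The members' median ranged from -0.79 to -0.54. The log2 difference in the ratio of Scnn1b to Scnn1a ranged from -0.23 to 0.093 with a library left out and was above 0 without Db + Ato10 replicate 1 (0.093); the other ratios kept their sign, that of Scnn1g to Scnn1b over -0.57 to -0.25. Members below every Db library were 7 in CPM, TPM and counts scaled by DESeq2, and 6 in FPKM and in counts per library total, where Scnn1b overlapped. With the replicate number as a replicate block, edgeR called 0 DEGs (1856 genes and 5 members at an unadjusted p under 0.05). Same-numbered libraries correlated at -0.15, 0.060 and 0.21 in their deviations from the group means. With 3 libraries per group, these values cannot show whether the numbers pair the mice. With 56 to 185 counts per library, Nr3c2 was the member with the fewest counts.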
